A study of Rattus norvegicus with 10 samples.

Results

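Genes of the extracellular matrix and of the fibroblasts that make it were followed in 10 rat lacrimal glands. The set was a list of 47 gene symbols, and a gene counted as a member when a probe set of the array carried its symbol alone. The array held 44 of them, out of 4737 genes with a probe set of 1 symbol; Thbs1, Thbs2 and Ccn2 were the 3 without one. The 44 genes had 76 probe sets, and 16 genes had several. After a filter on dim probe sets 60 probe sets of 40 genes were tested; no probe set of Col2a1, Mmp9, Nid1 or Tgfb1 passed the filter.

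The lacrimal gland secretes the watery layer of the tear film, and the greater superficial petrosal nerve carries its parasympathetic supply. Total RNA of each gland was measured on 1 Affymetrix rat array. The denervated group held 5 glands taken 7 days after that nerve was cut. The 5 control glands were 3 contralateral glands from the same time after surgery, 1 gland of an unoperated rat and 1 gland collected 7 days after sham surgery. The labels' descriptions place the 3 contralateral glands on the side of the operation while their titles call them contralateral, and the titles were followed. The labels give no strain, age or sex. Nor do they say that each gland of a group had its own donor rat, so the p-values rest on the spread between these glands, which may be technical. In whole glands, fewer cells of a type and less RNA per cell cannot be told apart.

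The matrix is the protein mesh around secretory acini, ducts and vessels. Fibroblasts secrete fibrillar collagens, which are folded with a chaperone and cross-linked outside the cell, together with glycoproteins and small proteoglycans that organise the fibres, while basement membranes underlie the epithelium. Metalloproteases and plasminogen activators cut these proteins, tissue inhibitors hold the proteases in check, and growth factors of the TGF-beta family are classical inducers of matrix genes. Matrix deposition is a known feature of injured and inflamed exocrine glands.

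The arrays did not fall into the labelled groups alone. Contralateral 1, sham and denervated 1 had correlations of log2 intensity, across probe sets, of 0.851 to 0.898 among themselves and 0.715 to 0.821 with the other 7 arrays, which lay at 0.752 to 0.912 with each other. Denervated 2 and denervated 5 correlated at 0.847, and denervated 5 at 0.752 to 0.804 with the other 5 arrays of its set of 7. The water channel Aqp5, typical of secretory cells, lay between 12.61 and 14.21 (log2 intensity) in all glands, but Scgb2a1, a secretoglobin, was at the floor of 7.29 in contralateral 1, sham and denervated 1, 2 and 5 and at 16.18 to 18.46 in the other 5 glands. The secretory cell regulator Bhlha15 was at 12.12 and 12.63 in denervated 2 and 5 and at 14.67 to 16.65 elsewhere, and the secretory protein Csap1 was at 16.31 and 16.66 in these 2 and at 13.08 or below elsewhere. No label says what sets these arrays apart, so results are given below with and without them.

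Nerve section was first examined against all 5 control glands. Members were chosen with earlier results of these data known, so their shares beside the background are a description and no independent test. Matrix genes had higher mean levels in denervated glands for 45 of 60 probe sets (75.0%), where 44.6% of all 6118 tested probe sets had a difference above 0. The median log2 difference of the 60 was 0.50, against -0.08 over all tested probe sets. Counted by gene, with the brightest probe set of each, 31 of 40 were higher, with a median of 0.49. No probe set passed the test: limma gave 0 of 60, and 0 of 6118 (0%), at an adjusted p under 0.05, and the adjusted p of members ran from 0.434 to 0.995. At an unadjusted p under 0.05 there were 15 probe sets higher (25.0%, against 5.02% of all tested) and 2 lower (3.33%, against 4.66%). The glands of the groups did not overlap for 1 probe set, of Pdgfra, which was higher (background 0.637%), and for 0 that were lower (background 1.03%). The filter took the mean over all 10 glands, so a probe set could pass through high values in denervated glands alone. With no filter on dim probe sets 53 of 76 were higher (background 44.1%). At an unadjusted p under 0.05 by limma, 11 of these 76 were higher and 2 lower.

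The denervated glands differed among themselves. The matrix score of a gland, the mean over 40 genes of its log2 difference from the control mean, was 0.00 in denervated 1, 0.96 in denervated 2, 0.58 in denervated 3, 0.14 in denervated 4 and 1.05 in denervated 5. Control glands had -0.06, 0.06 and -0.43 (contralateral 1 to 3), 0.00 (unoperated) and 0.43 (sham). Denervated 2, 3 and 5 thus lay above every control gland, and denervated 1 and 4 among them. The mean score was 0.55 ± 0.47 (SD, n = 5) in denervated glands, and the control SD was 0.31. Of the 40 genes, 7 were above all 5 control glands in denervated 1 (17.7% of all tested probe sets were), 19 in denervated 2 (20.2%), 15 in denervated 3 (13.8%), 9 in denervated 4 (13.7%) and 23 in denervated 5 (26.7%).

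**Figure D1:**
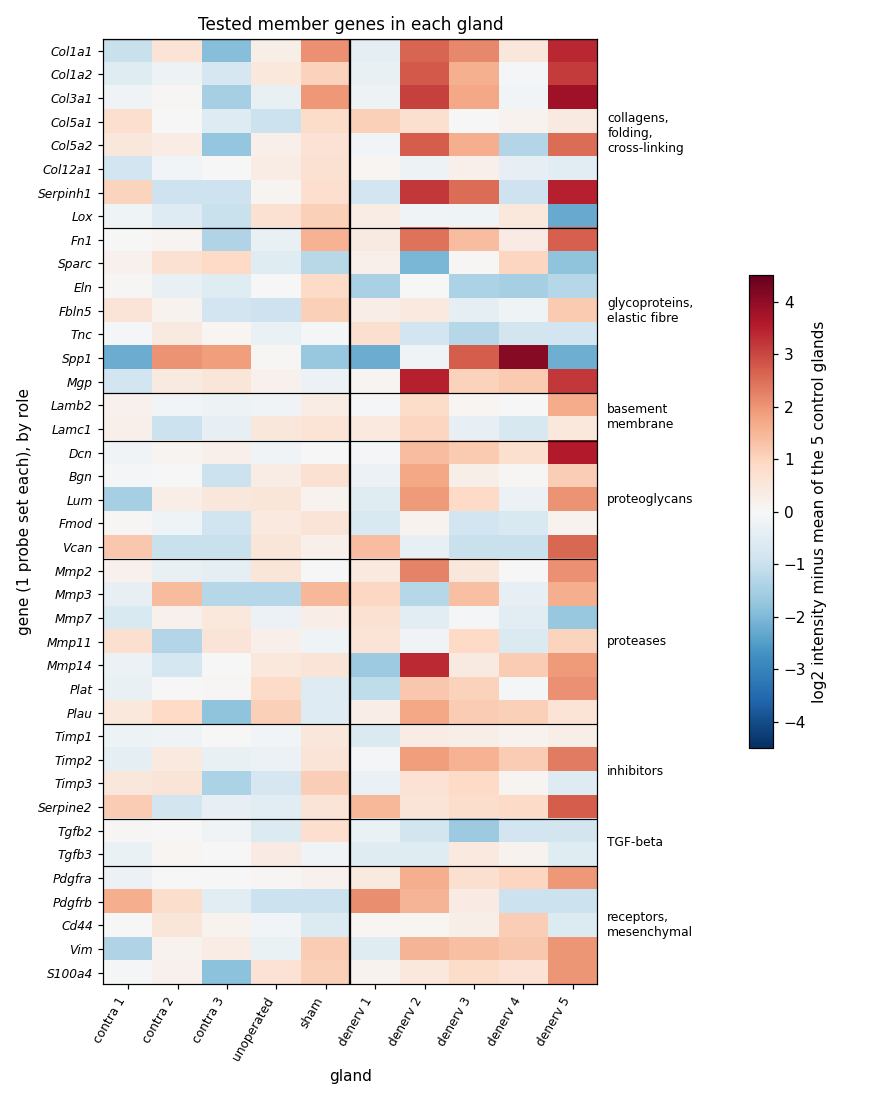
Log2 intensity of the 40 tested matrix genes in each of the 10 glands, minus the mean of the 5 control glands, with 1 row per gene grouped by role and 1 column per gland; red is higher and blue lower. Most genes are red in denervated 2, 3 and 5 (28, 31 and 28 of 40), but also in the sham gland (28 of 40). Scores were 0.96, 0.58 and 1.05 in these 3 denervated glands and 0.43 in the sham gland. Denervated 1 and 4, with 0.00 and 0.14, lie within the range of the control glands.

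Some members were high in the same glands, so the stretch before the start of 3 of them is shown. These 3, Col1a2, Timp2 and Vim, stand for a collagen, a protease inhibitor and a mesenchymal filament with high levels in denervated 2, 3 and 5. Timp2 and Vim, but not Col1a2, were above all controls in denervated 4 as well. Sequences are from RefSeq, assembly GRCr8, and end at the last base before the annotated start; 28 of the 44 genes had an entry. Capitals mark the CCAAT box, the TATA box searched as TATAAA, and the GC box searched as GGGCGG, on either strand, and no position belonged to more than 1 of them. Each stretch has 250 bases: Col1a2 at chr4:33518307-33518556, plus strand; Timp2 at chr10:104089215-104089464, minus strand; Vim at chr17:81577011-81577260, plus strand.
Col1a2: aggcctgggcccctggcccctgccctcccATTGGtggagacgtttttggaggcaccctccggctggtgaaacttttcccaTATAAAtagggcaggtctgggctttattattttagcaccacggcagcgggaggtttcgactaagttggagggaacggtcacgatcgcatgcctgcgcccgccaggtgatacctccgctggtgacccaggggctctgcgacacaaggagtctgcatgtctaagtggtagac
Timp2: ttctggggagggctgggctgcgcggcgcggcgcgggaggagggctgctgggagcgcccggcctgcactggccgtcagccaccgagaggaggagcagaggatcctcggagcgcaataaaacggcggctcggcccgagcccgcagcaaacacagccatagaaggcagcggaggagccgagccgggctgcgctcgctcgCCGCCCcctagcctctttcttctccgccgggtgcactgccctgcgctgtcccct
Vim: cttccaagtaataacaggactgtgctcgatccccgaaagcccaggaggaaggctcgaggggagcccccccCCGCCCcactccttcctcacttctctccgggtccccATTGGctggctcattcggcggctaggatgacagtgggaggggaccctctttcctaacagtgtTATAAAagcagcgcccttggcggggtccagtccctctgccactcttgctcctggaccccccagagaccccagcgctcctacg
Col1a2 held a CCAAT on the opposite strand at -221 and a TATAAA at -170, counted from the annotated start. Timp2 held 1 GGGCGG on the opposite strand at -54, and Vim held all 3 motifs, with TATAAA at -82 and, on the opposite strand, CCAAT at -144 and GGGCGG at -180. Among all 33469 such windows 34.0% held CCAAT, 12.9% TATAAA and 30.5% GGGCGG, and of the 28 member genes 9, 7 and 15 did. A match is a description of these letters and shows no binding.

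Fibrillar collagens and the proteins that fold and cross-link them had a median difference of 1.26 log2 units over 8 tested genes, the highest of the roles with all 10 glands in the fit, and 6 of the 8 were higher. Col1a1, which encodes the main chain of type I collagen, had log2 intensities of 12.50, 15.49, 15.03, 13.39 and 16.27 in denervated 1 to 5, 11.90, 13.50 and 10.96 in contralateral 1 to 3, 13.14 in the unoperated gland and 14.93 in the sham gland. Denervated 2, 3 and 5 lay above all controls, denervated 1 and 4 did not, and the sham gland was the highest control. Means were 14.54 ± 1.55 (SD, n = 5) after denervation and 12.89 ± 1.52 (SD, n = 5) among controls, a difference of 1.65 ± 0.75 (SE), or 3.14-fold (limma adjusted p = 0.507). Its other 3 probe sets differed by 1.62, 0.51 and 0.98.

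Col1a2, the second chain of type I collagen, read 10.34, 13.46, 12.30, 10.62 and 13.85 in denervated 1 to 5, 10.16, 10.47 and 9.93 in contralateral 1 to 3, 11.18 in the unoperated gland and 11.72 in the sham gland. The same 3 denervated glands were above all controls. The difference was 1.42 ± 0.63, or 2.68-fold (limma adjusted p = 0.504). Col3a1 encodes type III collagen of soft, reticular stroma. Its levels were 11.62, 14.95, 13.59, 11.74 and 15.68 in denervated 1 to 5, 11.69, 11.93 and 10.35 in contralateral 1 to 3, 11.54 in the unoperated gland and 13.80 in the sham gland. Here denervated 2 and 5 exceeded every control and denervated 3 lay just under the sham gland, with a mean difference of 1.65 ± 0.76, 3.15-fold (limma adjusted p = 0.509), and 1.18 at the second probe set. Serpinh1 is the chaperone that folds procollagen in the endoplasmic reticulum. It measured 7.37, 11.43, 10.75, 7.29 and 11.74 in denervated 1 to 5, 9.23, 7.29 and 7.29 in contralateral 1 to 3, 8.37 in the unoperated gland and 9.002 in the sham gland. Denervated 4 and contralateral 2 and 3 were at the floor, where values have no order, and denervated 2, 3 and 5 were more than 1 log2 unit above the highest control. With floored glands in both groups, the Serpinh1 difference of 1.48 ± 0.90 (limma adjusted p = 0.611) may understate or overstate a change.

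The other collagen genes varied more. Col5a2, a chain of type V collagen that sets fibril width, ranged from 7.71 to 11.76 in denervated and from 7.29 to 9.67 in control glands, with a difference of 1.09 ± 0.76; again denervated 2, 3 and 5 were above all controls. Col5a1, its partner chain, differed by 0.48 ± 0.42, and Col12a1, a collagen on the surface of fibrils, by -0.15 ± 0.45. The probe sets of Lox, the enzyme that cross-links collagen and elastin, disagreed with all glands in the fit. The brightest differed by -0.36 ± 0.60 and the second by 1.40 ± 0.60, with 4 denervated glands above all controls at the second. At the brightest, denervated 5 was at the floor and denervated 1 to 4 read 9.88, 9.39, 9.37 and 10.03, against 8.56 to 10.63 in control glands. Its difference was 0.21 without denervated 2 and 5, so its sign depended on the glands used. Col2a1, the collagen of cartilage, was too dim to test, lying at 9.61 or below in every gland. Without denervated 2 and 5 the median of this role was 0.31, below those of glycoproteins (0.41), protease inhibitors (0.56) and receptors (0.55), and with 3 array sets as a block it was 0.32. Without contralateral 1, sham and denervated 1 it was 1.92.

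**Figure D2:**
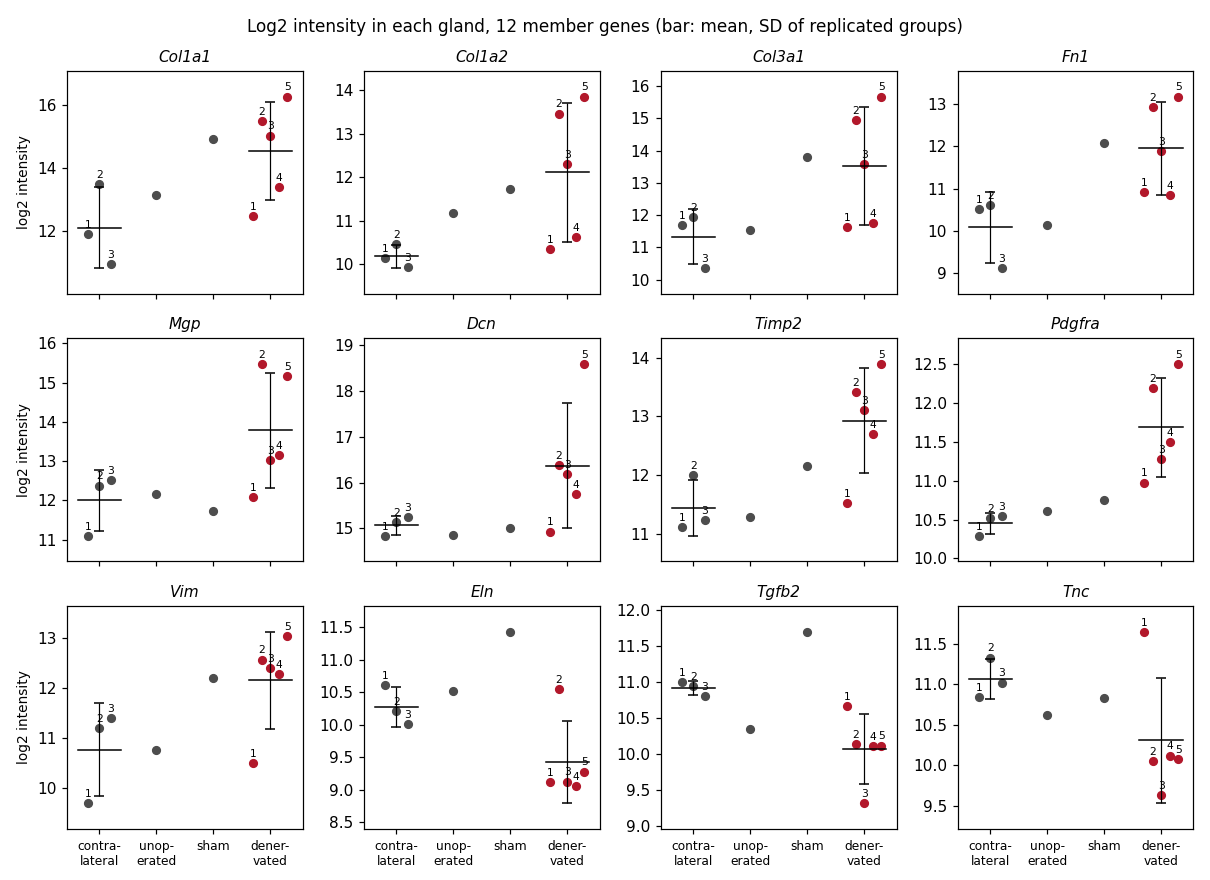
Log2 intensity of 12 matrix genes in each gland, 1 panel per gene with its own vertical axis; points are glands, numbers are the labels' gland numbers, and bars give the mean and SD of the contralateral and denervated groups. Col1a1, Col1a2 and Fn1 are high in denervated 2, 3 and 5, Timp2, Dcn, Mgp and Vim in denervated 2 to 5, and Eln, Tgfb2 and Tnc have low values in most denervated glands.

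Matrix glycoproteins had differences of both signs: 4 of 7 tested genes were higher, with a median of 0.27, or -0.19 without contralateral 1, sham and denervated 1. Fibronectin, Fn1, which links cells to collagen, had levels of 10.91, 12.92, 11.89, 10.84 and 13.18 in denervated 1 to 5, 10.52, 10.61 and 9.12 in contralateral 1 to 3, 10.14 in the unoperated gland and 12.07 in the sham gland. Denervated 2 and 5 exceeded all controls, and denervated 1, 3 and 4 all but the sham gland. The difference was 1.46 ± 0.56, or 2.75-fold (limma adjusted p = 0.451), and the other 4 probe sets of Fn1 were too dim to test. Mgp, matrix Gla protein, an inhibitor of calcification, read 12.09, 15.47, 13.02, 13.16 and 15.17 in denervated 1 to 5, 11.10, 12.38 and 12.52 in contralateral 1 to 3, 12.16 in the unoperated gland and 11.72 in the sham gland. Every denervated gland but denervated 1 was above all controls, and denervated 2 and 5 were the highest by more than 2 log2 units. Mgp differed by 1.81 ± 0.56, 3.5-fold, with a limma adjusted p of 0.435.

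Sparc, a collagen-binding protein made by stromal and other cells, gave opposite readings. Its brightest probe set had levels of 16.43, 14.16, 16.28, 17.17 and 14.41 in denervated 1 to 5, 16.41, 16.89 and 17.13 in contralateral 1 to 3, 15.68 in the unoperated gland and 14.97 in the sham gland. Denervated 2 and 5 were the lowest of all glands at it and denervated 4 the highest, for a mean difference of -0.53 ± 0.56 (limma adjusted p = 0.779). The other 3 probe sets differed by 0.67, 0.35 and 2.04, with their highest values in denervated 2 and 5, as for the collagens. Which of them follows Sparc was not tested.

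Elastin and tenascin C had lower means. Eln, the elastic fibre protein, had levels of 9.11, 10.55, 9.12, 9.06 and 9.28 in denervated 1 to 5, 10.60, 10.21 and 10.01 in contralateral 1 to 3, 10.52 in the unoperated gland and 11.43 in the sham gland. Denervated 1, 3, 4 and 5 were below all controls and denervated 2 was among them, giving -1.13 ± 0.43 (limma adjusted p = 0.451). Tnc, a glycoprotein of developing and healing tissue, read 11.65, 10.05, 9.64, 10.12 and 10.07 in denervated 1 to 5, 10.84, 11.33 and 11.02 in contralateral 1 to 3, 10.62 in the unoperated gland and 10.83 in the sham gland. Denervated 2 to 5 lay below every control while denervated 1 lay above every control. Its difference was -0.62 ± 0.39 (limma adjusted p = 0.62). Fbln5, which assembles elastic fibres, differed by 0.27 ± 0.46. Osteopontin, Spp1, ran from the floor to 13.58 in denervated and from the floor to 11.53 in control glands, so its difference of 0.45 ± 1.21 is smaller than its spread. In the basement membrane, the laminin chains Lamb2 and Lamc1 differed by 0.49 ± 0.36 and 0.15 ± 0.40, and the second Lamb2 probe set by -1.14, of opposite sign; without denervated 2 and 5 the median of Lamb2 and Lamc1 was -0.11. The linker Nid1 was at 9.24 or below in every gland.

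Small proteoglycans of the collagen fibril included decorin, Dcn. Its brightest probe set had levels of 14.93, 16.39, 16.19, 15.74 and 18.59 in denervated 1 to 5, 14.84, 15.14 and 15.24 in contralateral 1 to 3, 14.85 in the unoperated gland and 15.005 in the sham gland. Denervated 2 to 5 were above all controls, which spanned 14.84 to 15.24, and denervated 1 was within that span. The Dcn difference was 1.35 ± 0.49, 2.56-fold (limma adjusted p = 0.448), and the other 3 probe sets gave 1.38, 1.26 and 0.89, all of the same sign. Biglycan, Bgn, differed by 0.58 ± 0.41 and 0.14 ± 0.51 at its probe sets, and lumican, Lum, by 0.81 ± 0.59, with denervated 2, 3 and 5 above all controls. Fibromodulin, Fmod, gave -0.38 ± 0.41 and 0.34 ± 0.69, of opposite sign, and the large proteoglycan versican, Vcan, 0.32 ± 0.76. Of the 5 genes 4 were higher, with a median of 0.58. With denervated 2 and 5 left out the median over the 4 genes still tested was 0.02, and with 3 array sets as a block that of all 5 was -0.04.

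Among matrix proteases 6 of 7 tested genes were higher, with a median of 0.62. The median was 1.06 without denervated 1, 0.28 with 5 of 7 higher without denervated 2 and 5, and 0.32 with 5 of 7 higher with 3 array sets as a block. Mmp2, gelatinase A, a protease of stromal cells, had levels of 11.74, 13.51, 11.81, 11.27 and 13.34 in denervated 1 to 5, 11.47, 10.97 and 10.89 in contralateral 1 to 3, 11.83 in the unoperated gland and 11.29 in the sham gland. Only denervated 2 and 5 were above all controls, by more than 1 log2 unit, and denervated 1 and 3 were close to the unoperated gland. Mmp2 differed by 1.04 ± 0.42, 2.06-fold (limma adjusted p = 0.457), and by -0.06 at a dimmer probe set. Plau, urokinase, which activates plasminogen, read 9.91, 11.34, 10.77, 10.67 and 10.22 in denervated 1 to 5, 10.08, 10.51 and 7.78 in contralateral 1 to 3, 10.68 in the unoperated gland and 9.02 in the sham gland. Denervated 2 and 3 exceeded all controls, denervated 4 was just below the unoperated gland, and the difference was 0.97 ± 0.55 (limma adjusted p = 0.588). Mmp14, the membrane protease that activates gelatinase A, ranged from 8.59 in denervated 1 to 13.57 in denervated 2, against 9.43 to 10.80 in control glands, and differed by 1.03 ± 0.70. The tissue plasminogen activator Plat differed by 0.62 ± 0.61, stromelysin Mmp3 by 0.46 ± 0.75, Mmp11 by 0.34 ± 0.50 and the epithelial protease Mmp7 by -0.42 ± 0.51. Mmp9, gelatinase B of leukocytes, was at 7.97 or below in all glands except denervated 5 (9.56) and contralateral 2 (8.15) and was not tested.

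All 4 protease inhibitors had higher means, with a median of 0.73, or 1.30 without contralateral 1, sham and denervated 1. Without denervated 2 and 5, 3 of the 4 were higher with a median of 0.56, and with 3 array sets as a block 3 of 4 with 0.57. Timp2, which inhibits metalloproteases and takes part in activating gelatinase A, had levels of 11.52, 13.42, 13.12, 12.71 and 13.89 in denervated 1 to 5, 11.11, 11.995 and 11.23 in contralateral 1 to 3, 11.29 in the unoperated gland and 12.15 in the sham gland. Denervated 2 to 5 were above all controls and denervated 1 was inside their range. The mean was 12.93 ± 0.90 (SD, n = 5) against 11.56 ± 0.48 (SD, n = 5), a difference of 1.38 ± 0.39, or 2.59-fold. Its limma adjusted p of 0.434 was the lowest of any member, shared with Pdgfra. Serpine2, an inhibitor of thrombin and urokinase, read 9.61, 8.71, 8.92, 8.98 and 10.83 in denervated 1 to 5, 9.28, 7.29 and 7.74 in contralateral 1 to 3, 7.60 in the unoperated gland and 8.69 in the sham gland. Denervated 1 and 5 were above all controls, the other 3 lay between contralateral 1 and the rest, and the difference was 1.29 ± 0.58, 2.45-fold (limma adjusted p = 0.505). Timp1 differed by 0.08 ± 0.30 and by 1.16 ± 0.73 at a dimmer probe set, and Timp3, which binds to the matrix, by 0.16 ± 0.57.

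Of the growth factors, no tested gene had a higher mean. Tgfb2 had levels of 10.66, 10.15, 9.32, 10.12 and 10.12 in denervated 1 to 5, 11.004, 10.95 and 10.81 in contralateral 1 to 3, 10.35 in the unoperated gland and 11.70 in the sham gland. Denervated 2 to 5 were below all controls, and denervated 1 was above the unoperated gland only, for a difference of -0.89 ± 0.36 (limma adjusted p = 0.459). Tgfb3 differed by -0.21 ± 0.25 and -0.21 ± 0.30 at its probe sets; without denervated 2 and 5 these were 0.02 and -0.03. Tgfb1 was too dim to test, with 7.71 to 9.89 in denervated and 7.29 to 8.42 in control glands.

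The fibroblast receptor and mesenchymal genes all had higher means, 5 of 5, with a median of 0.82. Over the 4 of them still tested without contralateral 1, sham and denervated 1 the median was 1.31, and without denervated 2 and 5, where 5 of 5 were higher, it was 0.55. Pdgfra, the receptor that marks many tissue fibroblasts, had levels of 10.98, 12.19, 11.28, 11.50 and 12.50 in denervated 1 to 5, 10.29, 10.52 and 10.54 in contralateral 1 to 3, 10.61 in the unoperated gland and 10.75 in the sham gland. All 5 denervated glands were above all 5 controls, which spanned 10.29 to 10.75. The mean was 11.69 ± 0.64 (SD, n = 5) against 10.54 ± 0.17 (SD, n = 5), a difference of 1.15 ± 0.32, or 2.21-fold (limma adjusted p = 0.434). Dimmer Pdgfra probe sets had lower means in denervated glands: the second differed by -0.86, and the other 2, with glands at the floor, were not tested. Vim, vimentin, the filament of mesenchymal cells, read 10.50, 12.57, 12.41, 12.28 and 13.04 in denervated 1 to 5, 9.69, 11.21 and 11.40 in contralateral 1 to 3, 10.76 in the unoperated gland and 12.21 in the sham gland. Denervated 2 to 5 exceeded all controls, the sham gland being within 0.1 log2 units of denervated 4. Vim differed by 1.11 ± 0.50, 2.15-fold (limma adjusted p = 0.505). S100a4, a calcium-binding protein of fibroblasts and of leukocytes, had levels of 10.52, 10.83, 11.18, 11.02 and 12.34 in denervated 1 to 5, 10.28, 10.55 and 8.50 in contralateral 1 to 3, 11.02 in the unoperated gland and 11.42 in the sham gland. Only denervated 5 was above all controls, and contralateral 3 was far below the rest, for a difference of 0.82 ± 0.51 (limma adjusted p = 0.621). The pericyte receptor Pdgfrb differed by 0.42 ± 0.75, and the hyaluronan receptor Cd44 by 0.18, -0.01 and -0.28 at its tested probe sets.

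**Figure D3:**
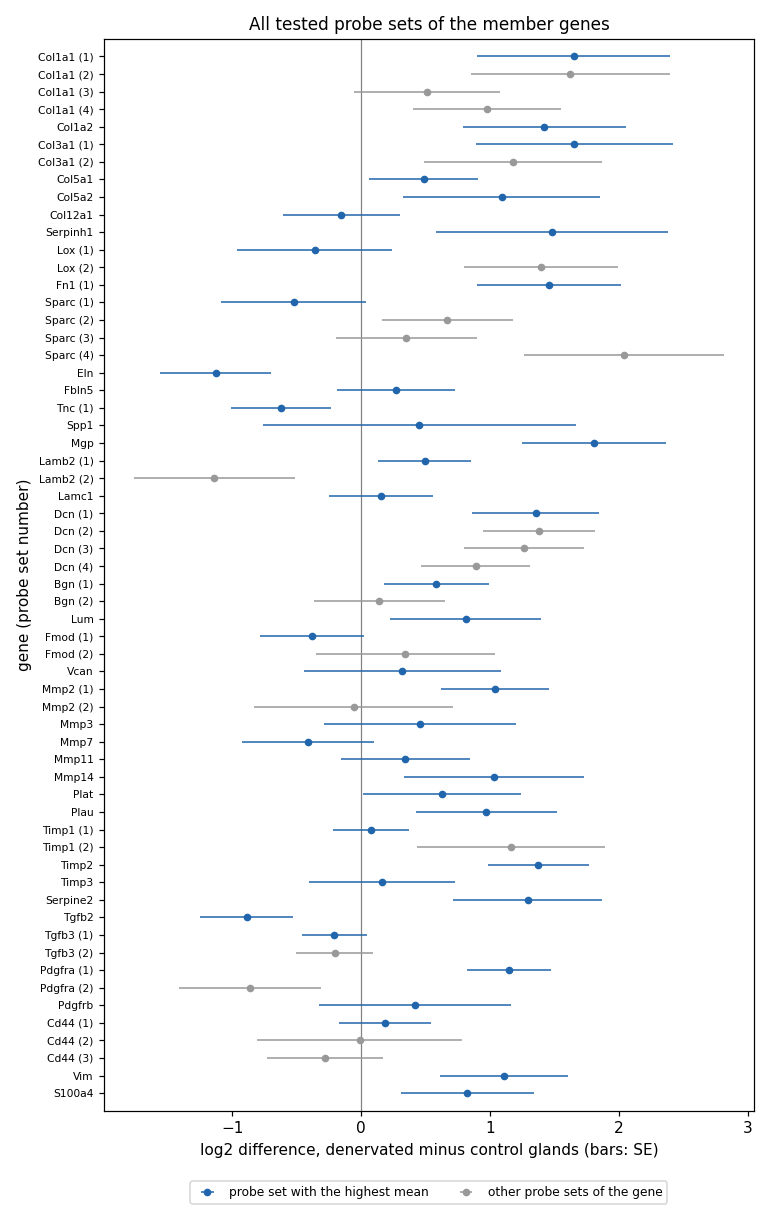
Log2 difference, denervated minus control glands (5 against 5), for the 60 tested matrix probe sets grouped by role; bars are the SE from limma, blue points the brightest probe set of a gene and grey points its others. Points lie right of 0 for 45 of 60 and left of 0 for 15. The latter include Eln, Tnc, the tested growth factors, Mmp7, Col12a1 and the brightest probe sets of Sparc, Lox and Fmod. The second probe sets of Lamb2 and Pdgfra are also among them.

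Results rested on which glands entered. Without denervated 1, limma gave 66 of 6118 probe sets (1.08%) at an adjusted p under 0.05, and 3 of these were members. Timp2 differed by 1.73 ± 0.31 (limma adjusted p = 0.0281), Mgp by 2.23 ± 0.49 (0.0488) and Dcn by 1.67 ± 0.37 at probe set 3 (0.0488). This fit kept contralateral 1 and sham, so the array set of denervated 1 was among controls only. The set of denervated 2 and 5 was among denervated glands only, so array set and denervation cannot be fully told apart here. At an unadjusted p under 0.05, 19 members were then higher (background 8.56%) and 3 lower (9.46%). The groups did not overlap for 8 member probe sets that were higher (background 3.81%), of Lox, Mgp, Dcn, Timp2, Pdgfra and Vim, and for 2 that were lower (background 3.78%), of Tnc and Tgfb2. Without contralateral 1, sham and denervated 1, 0 members passed. The limma adjusted p was 0.113 for Timp2 and Dcn probe set 3, the lowest of any member and shared with Vim, and 0.217 for Mgp. At an unadjusted p under 0.05 there were 24 probe sets higher (background 6.86%) and 1 lower (4.81%). In these 7 glands 15 member probe sets were higher without overlap (background 6.57%), among them all 4 of Dcn, and 2 were lower (6.05%). The filter on dim probe sets was applied anew in each fit, so the 60 member probe sets tested were not all the same ones. Without denervated 1 Tnc probe set 2 entered and Pdgfrb left, and the median log2 difference was 0.85, with 45 of 60 above 0 (background 43%). In the 7 glands Pdgfra probe set 3 and Tnc probe set 2 entered while Vcan and Pdgfrb left, and the median was 0.81, with 43 of 60 above 0 (background 47.8%).

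The difference was smaller without denervated 2 and 5. Then Fn1 probe set 2 and Tnc probe set 2 entered and Vcan and Mmp2 probe set 2 left, 38 of 60 probe sets were higher (background 44.3%), the median was 0.23, and at an unadjusted p under 0.05 there were 3 higher (background 0.948%) and 1 lower (2.48%). Pdgfra was still above all controls without overlap (background 0.866%) and Eln was then below them (2.16%). A fit with the 3 array sets as a block, entered as a fixed term, gave a median of 0.27, with 36 of 60 above 0 (background 45.5%). Since denervated 2 and 5 form a set without a control gland, that fit also took its difference from the other glands only. In that fit 4 members were higher (background 2.57%) and 2 lower (3.68%) at an unadjusted p under 0.05, and 1 of 6118 probe sets (0.0163%) passed and it was no member. Within the set of contralateral 1, sham and denervated 1, the denervated gland minus the mean of the 2 controls was -0.11 for Timp2, 0.01 for Dcn, 0.68 for Mgp, 0.45 for Pdgfra and -0.92 for Col1a1. For the mean of denervated 3 and 4 against contralateral 2, contralateral 3 and the unoperated gland, these values were 1.41 for Timp2, 0.89 for Dcn, 0.74 for Mgp, 0.83 for Pdgfra and 1.68 for Col1a1. Eln was lower in both, at -1.91 and -1.16, as was Tgfb2, at -0.69 and -0.99. No value within denervated 2 and 5 can be had, since that set holds no control gland, so the set and denervation cannot be told apart there.

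Markers of some other cells were high in some of the same glands. Beside the counts below, 44.6% of all tested probe sets were higher in denervated glands. Of 10 tested myoepithelial and smooth muscle markers 9 were higher in denervated glands, with a median of 1.01, and their scores were -0.26, 2.30, 0.74, 0.58 and 1.54 in denervated 1 to 5. Their summed intensity was 30806 to 136721 in denervated and 24527 to 46893 in control glands; Des and Oxtr were dim. All 8 tested macrophage markers were higher, with a median of 0.76, scores of 0.12, 1.24, 1.09, 0.91 and 1.43, and a summed intensity of 80551 to 341975 against 48300 to 127128; Csf1r was dim. Blood cell markers were higher for 3 of 4, with scores of 1.57 and 1.63 in denervated 2 and 5, at most 0.22 in the other denervated and 0.66 in control glands, and sums of 48234 to 375386 against 29639 to 179067; Epor was dim. Mast cell markers were higher for 3 of 6 and scored 0.88 and 1.79 in denervated 2 and 5, with sums of 4564 to 24451 against 5768 to 10684; Mcpt1, Ms4a2 and Mcpt4 were dim. Adipocyte markers were higher for 5 of 7 (sums of 17650 to 26372 against 14963 to 19275; Plin1, Cd36 and Pparg dim), endothelial markers for 2 of 7 (3942 to 7373 against 4861 to 9556) and lacrimal secretory markers for 5 of 10. The other lists gave 3 of 8 T, B and plasma cell, 6 of 10 skeletal muscle, 4 of 9 nerve and Schwann cell and 7 of 11 cell cycle genes higher. Skeletal muscle scores were low in denervated 2 and 5, at 0.27, -1.04, 0.76, 1.38 and -0.83 in denervated 1 to 5. No marker of any of the lists was at the floor in every gland. The part of these cells in the matrix differences was not tested. Several markers, such as Acta2, are also made by activated fibroblasts.

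**Figure D4:**
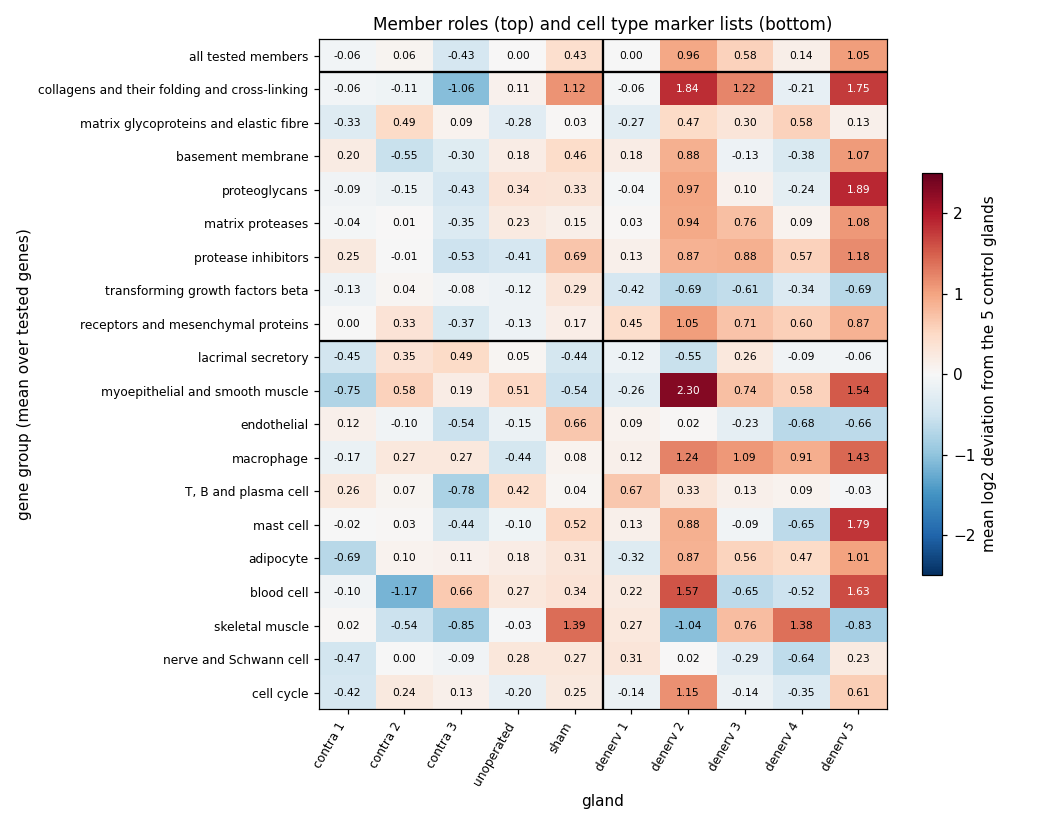
Mean log2 difference from the control mean in each of the 10 glands, for the 40 tested matrix genes, each role among them and each marker list; columns are glands and colours run from blue (lower) to red (higher). Denervated 2 and 5 have the highest matrix scores, 0.96 and 1.05, and also high scores for myoepithelial (2.30 and 1.54), macrophage (1.24 and 1.43) and blood cell markers (1.57 and 1.63).

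Other genes of the same pathway were taken from lists that share no gene with the members. These lists too were chosen with earlier results of these data known. Of 76 further matrix genes 42 were on the array and 30 tested; 20 were higher and 10 lower, with a median of 0.37, and 0 passed by limma. At an unadjusted p under 0.05, 6 of them were higher (against 5.02% of all tested probe sets) and 3 lower (against 4.66%). Ctsk, the collagen-degrading cathepsin K, differed by 1.17 ± 0.38, Loxl1, a cross-linking enzyme of elastic fibres, by 1.76 ± 0.65 (0.89 at a second probe set), and Pcolce, which enhances procollagen processing, by 1.77 ± 0.72. Subunits of the enzyme that hydroxylates procollagen differed in the other direction from the collagens. P4hb, which is also the disulfide isomerase of the endoplasmic reticulum, gave -1.14 ± 0.36, with -1.07 and -1.23 at its other probe sets, and P4ha1 gave -0.78 ± 0.33. Both were lowest in denervated 2 and 5, at 15.05 and 14.42 for P4hb and 10.45 and 9.78 for P4ha1. Denervated 3 and 4 were also below all controls for both genes, and denervated 1 was not. Glypican Gpc1, a cell surface proteoglycan, differed by -0.93 ± 0.39.

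Matrix receptors and TGF-beta signalling genes were divided. Of 41 genes 27 were on the array and 23 tested, 11 higher and 12 lower, with a median of -0.03; 0 passed by limma. At an unadjusted p under 0.05, 2 were higher (background 5.02%) and 0 lower (4.66%). The former were paxillin, Pxn, of focal adhesions (0.87 ± 0.40, and 1.26 at a second probe set), and Itgb4, the integrin of hemidesmosomes (1.25 ± 0.57). Talin, Tln1, which couples integrins to actin, differed by 0.99 ± 0.54. On the lower side were the collagen receptor Ddr1 (-0.56 ± 0.38, and -0.06 and -0.60 at other probe sets), the growth factor receptor Fgfr1 (-0.31 ± 0.24, and 0.08 and -0.79) and the laminin receptor Itga7 (-0.71 ± 0.61, and -0.07 and 0.48). For Itga7, denervated 5 was at the floor and the other denervated glands read 9.44 to 10.89, against 9.58 to 11.22 in control glands.

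The contralateral glands alone served as controls in the second comparison. It shares all denervated and 3 control glands with the first, so the values are given side by side and not as a second line of evidence. Of 60 member probe sets 45 were higher (background 49.5%), with a median log2 difference of 0.77, against -0.01 over all probe sets. By limma 0 of 60, and 0 of 6118 (0%), passed, the adjusted p of members running from 0.634 to 0.995. At an unadjusted p under 0.05, 18 were higher (30%, background 4.15%) and 0 lower (background 3.01%). With no filter 50 of 76 were higher (background 50%). Of the collagen role 8 of 8 tested genes were higher, with a median of 1.58, and the receptor and mesenchymal genes had a median of 1.24 with 3 of 5 higher.

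For Col1a1 the contralateral mean was 12.12 ± 1.29 (SD, n = 3), below that of all controls, and the difference was 2.41 ± 0.80 (limma adjusted p = 0.634). The other differences from contralateral glands were 1.93 ± 0.71 for Col1a2, 2.19 ± 0.87 for Col3a1, 1.87 ± 0.64 for Fn1, 1.79 ± 0.67 for Mgp and 1.22 ± 0.49 for Mmp2. Timp2 differed by 1.49 ± 0.47, Pdgfra by 1.24 ± 0.39, Vim by 1.39 ± 0.58 and S100a4 by 1.40 ± 0.53, and the adjusted p of these 10 genes was 0.634 to 0.654 by limma. All 5 denervated glands were above all 3 contralateral glands for Fn1, Pdgfra and the dimmest probe set of Dcn (background 2.19%), and below them for Tgfb2 (background 2.55%). S100a4 differed by 0.82 ± 0.51 from all controls and by 1.40 ± 0.53 from contralateral glands, since contralateral 3 was low and the unoperated and sham glands were high.

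The third comparison set contralateral against unoperated and sham glands, 3 against 2. Member levels were lower in contralateral glands for 49 of 60 probe sets and higher for 11 (40.3% of all probe sets were higher), with a median of -0.63 against -0.15 over all probe sets. Median scaling moved the median over all probe sets to 0.18 and that of members to -0.32, so the direction of members held while its size depended on scaling. By limma 0 of 60, and 0 of 6118 (0%), passed, with 0 higher (background 1.52%) and 3 lower (5.00%, background 3.37%) at an unadjusted p under 0.05: S100a4, the second probe set of Mmp2 and the dimmest of Dcn. No overlap was seen for 4 higher (background 6.83%) and 17 lower probe sets (background 15.2%). With no filter 20 of 76 were higher (background 41.8%). Markers of some other cells also had lower means in contralateral glands, among them 8 of 10 tested skeletal muscle markers, 3 of these at an unadjusted p under 0.05, with a median of -0.88. The skeletal muscle score was 1.39 in the sham gland and -0.03 in the unoperated gland, against 0.02, -0.54 and -0.85 in contralateral 1 to 3. Their summed intensity was 20756 in the sham gland, 8006 in the unoperated gland and 5341 to 9020 in contralateral glands; Myh2 and Tnni2 were dim. Of the other lists, 4 of 4 blood cell, 7 of 8 T, B and plasma cell, 5 of 6 mast cell and 5 of 7 adipocyte markers were lower. So were 6 of 9 nerve and Schwann cell and 4 of 7 endothelial markers. Others went the other way, with 8 of 10 lacrimal secretory and 6 of 10 myoepithelial and smooth muscle markers higher. Macrophage markers were higher for 5 of 8 and cell cycle genes for 6 of 11. The part of these cells in the member differences was not tested. Col1a1 differed by -1.91, Col3a1 by -1.34 and Fn1 by -1.02. The sham gland was the highest control for Col1a1, Col1a2, Col3a1, Fn1, Timp2, Vim, Pdgfra and S100a4. It was also the highest control for Eln and Tgfb2, whose means were lower in denervated glands. Over all tested probe sets its median log2 difference from the control mean was 0.20, the highest of any gland. With 1 sham gland, whose array also stood apart, an effect of surgery cannot be told apart from that gland.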

How the data were processed

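Total RNA of 10 rat lacrimal glands was measured on 1 array each. Each deposited value is a linear intensity of 1 probe set, which the authors had brought to a common scale per array: with 2% trimmed at each end, array means ran from 2505 to 2507. Their software is not given in the sources used here. The scaling was kept, intensities were floored at their 20th percentile (156.2; log2 7.29), log2 was taken, and 59 control probe sets were left out. Testing took 6118 of the other 8740, those whose mean exceeded the 30th percentile. Array number limits the precision: the median SE of a log2 difference was 0.50.

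Differences were tested with limma 3.58.1 in R 4.3.3 (lmFit, eBayes with a variance trend, two-sided, Benjamini-Hochberg over all tested probe sets, threshold 0.05), in a fit of 2 classes (denervated, control) and one of 3 (denervated, contralateral, unoperated with sham). Fold is 2 to the power of the log2 difference. These steps were run on simulated data with noise independent between glands, so that run does not cover sets of arrays that stand apart. Symbols came from the platform annotation; the gene IDs of all 76 member probe sets were found in RefSeq's GRCr8 table. Promoter windows were read with Python 3.11.15, and figures drawn with matplotlib 3.10.9.

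Members and lists were chosen with earlier results of these data known. Each gene is represented by its probe set with the highest mean. Values in every gland are given for the 16 members with the smallest unadjusted p in the first comparison, the 10 in the second, and the 4 with the highest mean, 18 genes in all; of each pathway list the 3 smallest p in each direction are named. Alternatives were other scalings, floors and filters, no trend, weighted arrays and a single probe set for each gene. Further ones were gland numbers as a block, through limma's correlation within blocks, and leaving out each gland. Sets of arrays left out, or as a block entered as a fixed term, were added after seeing the data.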

Additional observations from a re-analysis of the deposited data

Results flagged for a closer look

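In 38 groups of 5 glands, the denervated and the control values of named genes and of the gland scores were examined for 1 gland far from the others, by its gap to the nearest gland over the group's range. A gap over 0.71 of the range was flagged, which chance gives in about 1 in 20 groups. Eln, the elastic fibre protein, was flagged in denervated 2, at a log2 intensity of 10.55 where the other 4 denervated glands had 9.06 to 9.28 (gap over range 0.852). Tnc was flagged in denervated 1, at 11.65 where the others had 9.64 to 10.12 (0.760). At the stated rate, chance alone gives about as many flags in 38 groups as were found. Both flagged glands belong to sets of arrays that stood apart, as does denervated 5.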

How the results depend on the processing

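Shares in brackets are of all tested probe sets in the same fit or fits. In denervated against all control glands, leaving out each gland in turn gave 0 to 66 probe sets past the threshold, with 0 to 3 members. At an unadjusted p under 0.05 it gave 6 to 19 members higher (2.75% to 8.56%; 15 with all glands, 5.02%) and 0 to 3 lower (3.37% to 9.46%; 2 with all glands, 4.66%). Members without overlap were 1 to 10 (2.08% to 7.58%; 1 with all glands, 1.67%). With contralateral 1, sham and denervated 1 left out there were 24 higher (6.86%), 1 lower (4.81%) and 17 without overlap (12.6%). With denervated 2 and 5 left out there were 3 (0.948%), 1 (2.48%) and 2 (3.02%). With 3 sets of arrays as a block 1 probe set passed and 4 members were higher (2.57%). The median of members was 0.23 to 0.85 over all alternatives. Sparc reversed, to 0.41 without denervated 2 and 5 and 0.37 with 3 sets as a block.

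In denervated against contralateral glands 1 probe set, no member, passed without a variance trend, with array weights and with the replicate block. Members at an unadjusted p under 0.05 (18, 7.16%) were 8 to 24 leaving out each gland (4.32% to 13.3%), 10 with 1 probe set per gene (6.99%), 3 without denervated 2 and 5 (3.11%), and 9 with 3 sets as a block (6.41%). These last 2 gave medians of 0.34 and 0.32.

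In contralateral against unoperated and sham glands 7 probe sets passed without a filter and 0 to 1 leaving out each gland, none a member. Members at an unadjusted p under 0.05 (3, 4.89%) were 1 with quantile normalization (4.81%), 5 with the floor at the 30th percentile (5.67%), 6 with array weights (8.16%) and 1 with 1 probe set per gene (4.11%). They were 0 without contralateral 1, sham and denervated 1 (4.77%), 5 without denervated 2 and 5 (5.67%), 7 with 3 sets as a block (8.42%), and 0 to 5 leaving out each gland (3.24% to 6.98%). Their median was -0.34 with quantile normalization, -0.32 with median scaling, -0.29 without a filter, -0.31 with 1 probe set per gene, -0.28 without those 3 glands, and -0.93 to -0.27 leaving out each gland.

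The causes of these changes were not tested. Same-numbered contralateral and denervated glands had correlated deviations with r of 0.49, 0.04 and 0.16, and glands of different number -0.31 to 0.18. Since 1 of the 3 was not over 0.1 and the labels name no donors, the numbers were not taken to pair the glands. With the replicate block 18 members were higher in the first comparison (6.47%; median 0.55) and 21 differed in the second (10.9%; median 0.83). Of 670 values of the 18 named genes under alternatives, Sparc's 2 reversed, those of Mgp and Timp2 passed without denervated 1, and the rest kept direction and side of the threshold.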
